A study of Rattus norvegicus with 90 samples.

Results

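The comparison described here asked whether the liver of a rat dam and the liver of its fetuses responded differently to the same maternal dose of NBP2 at gestation day (GD) 18. NBP2, Nafion byproduct 2, is a polyfluoroalkyl ether sulfonic acid formed in the making of the fluoropolymer Nafion. The members are the GD18 libraries of maternal and fetal liver at 0 and 30 mg/kg/d, which are 20 of the 90 libraries of the series and come from 10 of its 45 dams. Each dam gave 1 maternal and 1 fetal library, and the dam number in the labels ties them together. The dams were time-mated Sprague-Dawley rats, approximately 90 days old, dosed orally from GD14 to GD18, and all were killed a few hours after the last dose. Of the 10 dams, 6 were controls at 0 mg/kg/d (dams 2069, 2070 and 2071 of study block 140 and dams 2114, 2115 and 2116 of study block 143) and 4 received 30 mg/kg/d (dams 2082 and 2083 of block 140 and dams 2127 and 2128 of block 143). The labels do not give the vehicle, or whether a fetal library holds 1 fetus or several of a litter. The fetuses were dosed only through the dam, so the comparison sets equal maternal doses side by side, and the concentration of NBP2 in either liver is not among the values used here.

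RNA was measured by TempO-Seq, a targeted assay in which pairs of detector probes are ligated on the transcript and counted by sequencing, with 1 probe set for 21119 genes per the labels. Abundant transcripts were attenuated equally in all libraries, per the labels' protocols. Levels are given as CPM, the counts of a gene scaled to a common library total, and can be compared between libraries for 1 gene but not between genes.

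Perfluoroalkyl acids resemble fatty acids, and their best known target in rodent liver is the nuclear receptor PPAR-alpha, which with its partner RXR switches on genes that bind, transport and oxidise fatty acids. A second pair of nuclear receptors, CAR and PXR, senses foreign compounds and induces cytochromes P450 of the Cyp2b and Cyp3a families, conjugating enzymes and transporters. The fetal liver in late gestation is still a blood-forming organ, and many genes of fatty acid and drug metabolism reach their full level only after birth.

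The livers matched their labels. The summed level of 16 mature hepatocyte markers was 32800 to 52800 CPM in maternal and 6930 to 9500 CPM in fetal libraries. That of 13 hepatoblast and fetal liver markers was 248 to 659 CPM in maternal and 13600 to 19500 CPM in fetal libraries. The 30 erythroid markers summed to 1950 to 8260 CPM in control dams and, without overlap, to 1470 to 1850 CPM in treated dams, and to 114000 to 146000 CPM in fetal controls and to 82600 to 137000 CPM in fetal treated libraries, where the doses overlapped. In bulk tissue, fewer cells of a type and less RNA per cell cannot be told apart. Libraries held 3641746 to 6585139 counts. Block 140 stood apart by counts on probes for olfactory, vomeronasal and taste receptors, 1243 genes that liver is not known to use. These summed to 3222 to 5540 CPM in its 5 maternal libraries, to 1094, 1489 and 3614 CPM in its fetal controls, and to 204 and 476 CPM in its fetal treated libraries, against 18.0 to 60.4 CPM in all libraries of block 143. Y-linked genes were counted in 8 of the 10 fetal libraries, and were at 0 to 0.172 CPM in the fetal libraries of control dam 2114 and treated dam 2082.

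The response of the fetus was set against that of its own dam in a model with a term for each dam, so that a positive difference means a larger rise, or a smaller fall, in fetal liver. Of 13953 genes tested, 6 (0.043%) differed at an adjusted p under 0.05 by edgeR's quasi-likelihood test, 3 of them higher in the fetus (0.0215%) and 3 lower (0.0215%). The 3 higher genes, Cyp4a3, Cyp4a2 and Fabp1, are textbook PPAR-alpha targets and rose in fetal liver with no called change in the dam. The 3 lower genes, LOC499136, Hrnr and AABR07053613.1, had high and low libraries where the receptor probe counts of block 140 were high and low. Under other scaling factors the split was 3 higher and 5 lower with RLE factors, where the median difference of all genes was -0.212 in place of -0.086, and 3 higher and 1 lower with TMM factors set within each liver. Dropping the dam block raised the number of calls to 443, of which 27 were higher and 416 lower. That fit kept a term for study block but treated the libraries of a dam as independent. Where a p-value without the block is given below, the dam block is meant. Such a value is shown for comparison and is not a call of the paired test.

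For each liver alone, 63 of 13783 genes (0.457%) changed in the dam, 48 up (0.348%) and 15 down (0.109%). In fetal liver 13 of 12659 genes (0.103%) changed, all of them up, although with control and 30 mg/kg/d libraries alone 9 rose and 3 fell. The livers shared 6 of these calls, among them Ehhadh, Vnn1, Acot1, Cyp3a23/3a1 and AABR07035374.1, which is 9.52% of the maternal and 46.2% of the fetal calls. Cyp3a23/3a1 and AABR07035374.1 overlap on the same strand and may not be separate calls. Of the 43 maternal rises that could be tested in the fetus, 27 had a higher fetal value, and of the 14 maternal falls 4 had a lower one. As a description, since the same libraries enter both, 46 of the 48 maternal rises had a negative difference and 9 of the 13 fetal rises a positive one, while 54.8% of all genes had a negative difference.

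**Figure D1:**
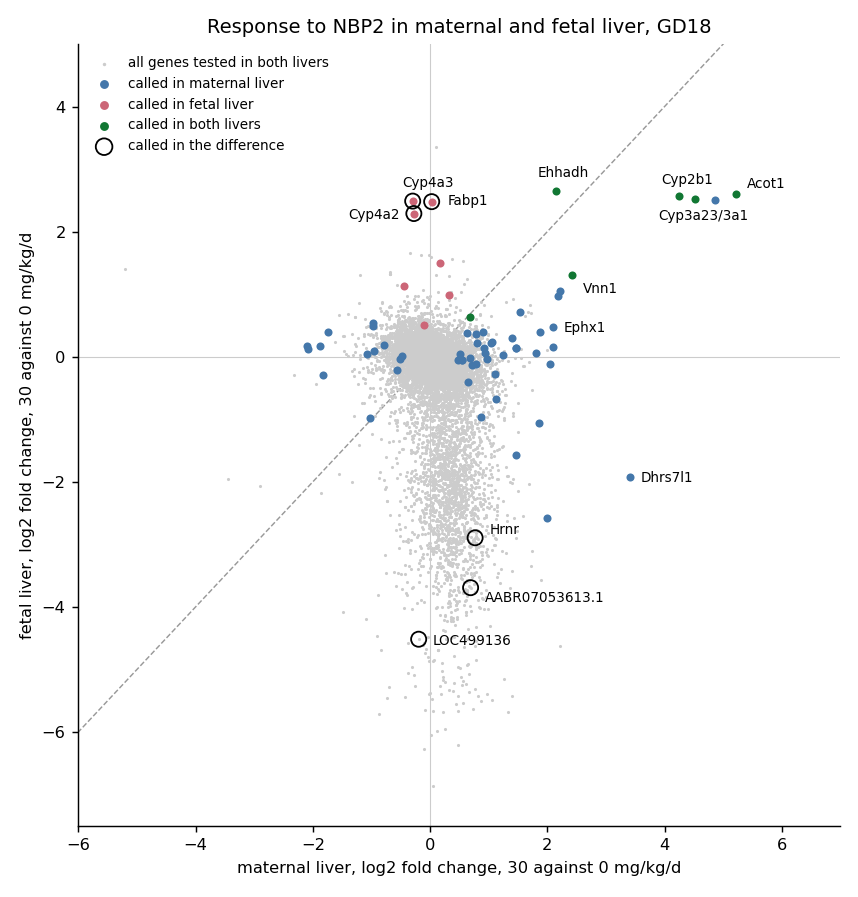
Log2 fold change at 30 against 0 mg/kg/d in maternal liver (horizontal axis) and fetal liver (vertical axis) for every gene tested in both, with the line of equal response dashed. Cyp4a3, Cyp4a2 and Fabp1 lie near 0 on the maternal axis and between 2.29 and 2.49 on the fetal axis, and the other 3 circled genes, with fetal values of -4.52, -3.69 and -2.90, are those called lower. Colour marks genes called in maternal liver (blue), fetal liver (red) or both (green).

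Cyp4a3 and Cyp4a2 encode fatty acid omega-hydroxylases of the endoplasmic reticulum, which oxidise the far end of the chain. Fabp1 encodes the liver fatty acid binding protein, which carries fatty acids through the hepatocyte. In the deposited table they lie at chr5:134469270-134484840 (minus strand), chr5:134196912-134207864 (minus strand) and chr4:99063181-99066955 (plus strand). The submitters' processing notes name the build rn6. The bases before the start of the 3 genes, and of Cyp3a23/3a1, which rose in both livers, are shown because PPAR-alpha and PXR act with RXR through pairs of a 6-base motif. They come from RefSeq (build GRCr8), where all 4 symbols were matched, and hold the 250 bases before the start, 5′ to 3′, with the matches found in capitals.
Cyp4a3 (chr5:134352237-134352486, minus strand): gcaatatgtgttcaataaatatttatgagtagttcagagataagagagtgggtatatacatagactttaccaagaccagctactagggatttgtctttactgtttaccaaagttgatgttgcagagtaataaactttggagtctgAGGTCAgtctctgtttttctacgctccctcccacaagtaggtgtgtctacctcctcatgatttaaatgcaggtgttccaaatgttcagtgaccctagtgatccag
Cyp4a2 (chr5:134170909-134171158, minus strand): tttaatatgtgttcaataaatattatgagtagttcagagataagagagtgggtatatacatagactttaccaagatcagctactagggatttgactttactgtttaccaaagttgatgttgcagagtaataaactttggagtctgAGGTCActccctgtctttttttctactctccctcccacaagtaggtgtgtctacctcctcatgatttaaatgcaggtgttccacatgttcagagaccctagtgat
Fabp1 (chr4:104749090-104749339, plus strand): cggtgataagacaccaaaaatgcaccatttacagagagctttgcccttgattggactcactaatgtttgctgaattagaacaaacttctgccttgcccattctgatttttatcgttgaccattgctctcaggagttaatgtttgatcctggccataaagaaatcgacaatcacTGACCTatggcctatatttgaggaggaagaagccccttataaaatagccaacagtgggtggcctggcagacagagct
Cyp3a23/3a1 (chr12:14398804-14399053, minus strand): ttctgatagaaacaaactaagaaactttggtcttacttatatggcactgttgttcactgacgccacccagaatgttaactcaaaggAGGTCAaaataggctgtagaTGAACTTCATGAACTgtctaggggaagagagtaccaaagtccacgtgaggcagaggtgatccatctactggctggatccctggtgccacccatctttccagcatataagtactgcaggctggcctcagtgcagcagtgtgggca
The single motif AGGTCA was found on the plus strand in Cyp4a3 and Cyp4a2, 105 to 100 bases before the start in both, on the plus strand in Cyp3a23/3a1 and on the minus strand in Fabp1, and it occurs in 14.1% of the 33469 RefSeq windows of this length. Pairs of AGGTCA or AGTTCA, in any combination and on either strand, were searched as direct repeats with 1 (DR1), 3 (DR3) or 4 (DR4) bases between and as an everted repeat with 6 (ER6). Only exact matches were counted. Pairs with any other base, in Fabp1 and the Cyp4a genes too, were not searched, so their absence is not shown. The only exact pair was a DR3 on the minus strand of Cyp3a23/3a1, 144 to 130 bases before the start, a form found in 0.0388% of windows and bound by PXR with RXR. DR1 occurs in 0.0807%, DR4 in 0.0149% and ER6 in 0.00299% of windows. The windows of Cyp4a3 and Cyp4a2 were identical at 236 of 255 aligned positions, 92.5%, so these genes are close copies before their start.

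Cyp4a3 stood at 119, 159 and 242 CPM (lowest, median and highest of 6) in control dams and at 122, 130, 154 and 157 CPM in dams 2082, 2083, 2127 and 2128. In the fetus the controls stood at 4.27, 6.26 and 9.66 CPM and the treated libraries, in the same order of dams, at 41.7, 36.4, 34.3 and 29.3 CPM. The maternal groups overlapped, whereas every treated fetal library lay above every control, as did 0.284% of all genes tested in the fetus (0.727% were apart in either direction). The log2 fold change was -0.30 ± 0.24 (SE) in the dam (adjusted p = 0.719) and 2.49 ± 0.24 in the fetus (adjusted p = 7.39e-07), and their paired difference was 2.90 ± 0.37 (adjusted p = 0.0031), a 7.46-fold ratio of the fold changes. Control fetal liver held 3.97% of the control maternal level and treated fetal liver 21.2%, so the gene rose toward the maternal level without reaching it.

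The counts of Cyp4a2 may not be separate from those of Cyp4a3: both had values that are not whole in every library, and Cyp4a2 stood at 0.607 to 0.649 times Cyp4a3 in all maternal libraries, at 0.607 to 1.11 times in fetal controls and at 0.626 to 0.641 times in fetal treated libraries. In the fetus Cyp4a2 went from 3.56, 4.57 and 5.97 CPM (lowest, median, highest) to 26.7, 23.3, 21.5 and 18.4 CPM. Its difference was 2.67 ± 0.34 (adjusted p = 0.0031). Because the counting could split reads between the copies, the pair is best read as 1 signal. Summed, the pair went from 191 to 391 CPM to 201 to 252 CPM in the dam and from 8.07 to 15.5 CPM to 47.7 to 68.5 CPM in the fetus, with a difference of 2.80 ± 0.35 (adjusted p = 0.00492). The third family member of the list, Cyp4a1, had another pattern. It stood at 156, 186 and 241 CPM in control dams and at 627, 260, 246 and 287 CPM in treated dams, and at 0 to 1.41 CPM in all fetal libraries, too low for the fetal test. Its maternal fold change was 0.80 ± 0.21 (adjusted p = 0.0877) and its difference -0.97 (95% interval -2.42 to 0.47).

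For Fabp1, control dams stood at 4010, 6470 and 8130 CPM and treated dams at 4380, 4960, 8790 and 9060 CPM. Fetal controls stood at 44.8, 66.2 and 98.5 CPM and fetal treated libraries at 438, 382, 394 and 291 CPM. Here too the doses overlapped in the dam and were apart in the fetus. The log2 fold change was 0.03 ± 0.20 in the dam (adjusted p = 0.979) and 2.48 ± 0.27 in the fetus (adjusted p = 4.02e-06). The difference of 2.56 ± 0.42 (adjusted p = 0.0384) lay close to the threshold: it was not called when any 1 of dams 2069, 2070, 2071, 2082, 2083, 2114, 2115 or 2116 was left out (adjusted p 0.0606 to 0.235, with log2 values of 2.13 to 2.62) or with fetal sex as a covariate (0.0512). Within the study blocks the difference was 3.28 in block 140 and 1.86 in block 143, each called on its own, and for Cyp4a3 it was 3.74 and 2.08. With the receptor probe share as a covariate the 3 genes stayed called, at 2.47 for Cyp4a3, 2.29 for Cyp4a2 and 2.07 for Fabp1.

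**Figure D2:**
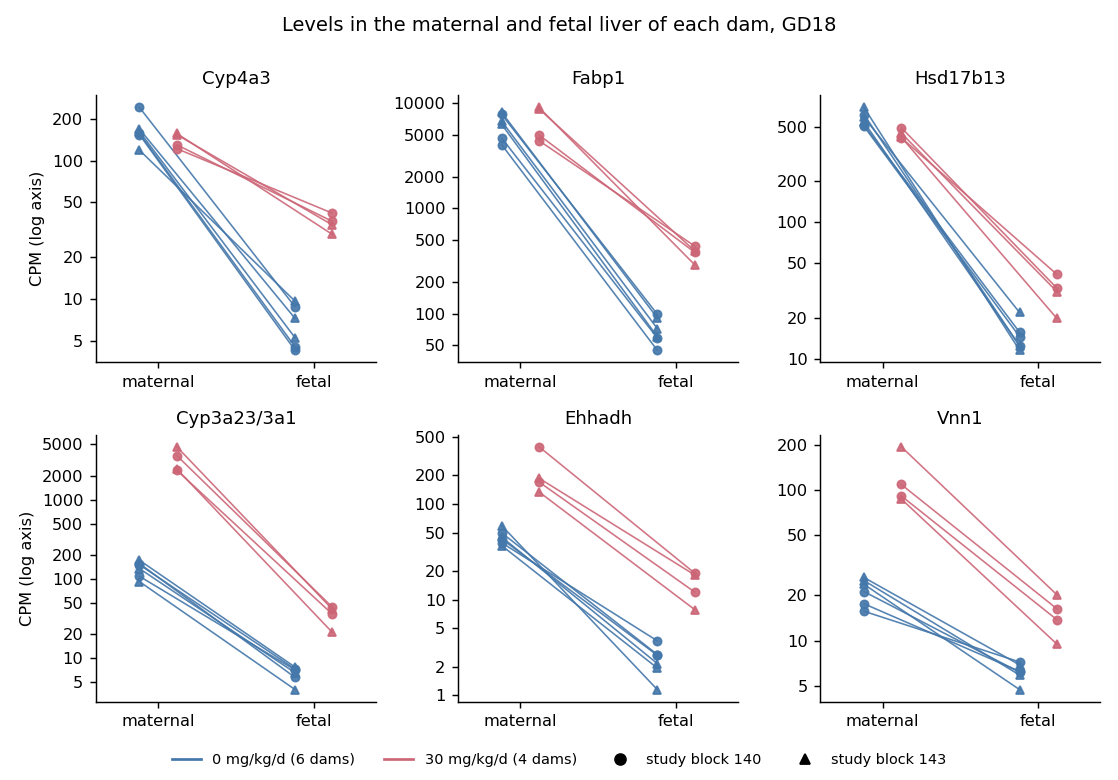
CPM on a log axis in the maternal and fetal liver of each dam, with a line joining the libraries of 1 dam, for 6 genes at 0 mg/kg/d (blue, 6 dams) and 30 mg/kg/d (red, 4 dams). Lines of both doses meet at the maternal end for Cyp4a3 and Fabp1 and stay apart at both ends for Cyp3a23/3a1, Ehhadh and Vnn1.

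Hsd17b13, Adtrp and Lpl also rose in fetal liver and were not called in the dam, and for none of these 3 genes did the difference pass. Hsd17b13, a lipid droplet enzyme, went from 11.5, 13.5 and 21.8 CPM to 32.9, 41.5, 31.0 and 19.7 CPM in the fetus, so that 1 treated library lay within the control range. Its maternal fold change was -0.44 ± 0.11 (adjusted p = 0.0877) and its difference 1.65 ± 0.36 (adjusted p = 0.119; 0.0152 without the block).

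Adtrp, which hydrolyses fatty acid esters of hydroxy fatty acids, stood at 88.3, 127 and 140 CPM in fetal controls and at 241, 240, 240 and 189 CPM in fetal treated libraries. Its fetal value was 0.99 ± 0.15 and the difference 0.77 (95% interval 0 to 1.53). Lpl, lipoprotein lipase, which frees fatty acids from circulating triglyceride, went from 124, 146 and 153 CPM to 204, 195, 220 and 162 CPM in the fetus. Both genes had treated and control fetal libraries apart. For Lpl the fetal value was 0.51 ± 0.10 and the difference 0.70 (95% interval -0.04 to 1.44). Lpl was the only one of these genes with a higher level in fetal than in maternal liver, 124 to 153 against 8.9 to 20.9 CPM in controls. The within-dam values, fetal minus maternal log2(CPM + 1), of the treated dams lay above those of all control dams for 7 of the 48 named genes tested: Cyp4a3, Cyp4a2, Fabp1, Hsd17b13, Rgn, Gulo and Prom1. Of all genes 0.43% did so, and 1.26% were apart in either direction. The named genes were chosen with earlier results of these data known, and Gulo and Prom1 after their values were seen. The count of 7 is therefore a description only.

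No gene called in both livers had a called difference. Ehhadh, the bifunctional enzyme of peroxisomal beta-oxidation, stood at 36.6, 44.0 and 59.2 CPM in control dams and at 394, 169, 185 and 133 CPM in treated dams. In the fetus it went from 1.15, 2.39 and 3.71 CPM to 18.9, 12.0, 18.1 and 7.87 CPM. The doses were apart in both livers, in the dam as for 0.769% of all genes in this direction and 1.33% in either. The fold changes were 2.15 ± 0.23 and 2.64 ± 0.28, and the difference was 0.55 (95% interval -0.21 to 1.31, adjusted p = 0.459).

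Vnn1, a pantetheinase, went from 15.7, 22.5 and 26.3 CPM to 109, 91.5, 194 and 87.3 CPM in the dam and from 4.74, 6.22 and 7.23 CPM to 16.3, 13.8, 20.2 and 9.50 CPM in the fetus. The doses were apart in both livers. It had a smaller fold change in the fetus, 1.31 ± 0.21 against 2.42 ± 0.24 in the dam, with a difference of -1.0 (95% interval -1.78 to -0.21, adjusted p = 0.267). Acot1, an acyl-CoA thioesterase, was the 1 gene of the group with more counts in fetal than in maternal controls, 1.15 to 3.88 against 0.183 to 1.98 CPM. With treatment it reached 52.4, 26.6, 72.9 and 17.8 CPM in the dams and 21.5, 12.3, 17.5 and 8.03 CPM in the fetuses, so the order of the livers turned over. The difference of -2.51 ± 0.49 was not called (adjusted p = 0.092) and was called without the dam block (0.035). Acot2 and Acot4, neighbours of Acot1 on chromosome 6 with the same kind of enzyme activity, had differences of -0.90 ± 0.38 (adjusted p = 0.293) and -1.43 ± 0.51 (adjusted p = 0.256).

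Cyp3a23/3a1, a drug-metabolising cytochrome P450 induced through PXR, was called in both livers. Control dams stood at 92.5, 143 and 172 CPM and treated dams at 3600, 2350, 4650 and 2440 CPM. The fetus went from 4.02, 6.83 and 7.72 CPM to 44.0, 35.9, 41.4 and 21.1 CPM. Every treated library lay far above the controls in both livers, and dam 2128 was lowest in the fetus and second lowest in the dam. The fold changes were 4.52 ± 0.43 in the dam and 2.53 ± 0.28 in the fetus. Their difference, -1.89 ± 0.35, was a 3.71-fold smaller fetal response with an adjusted p of 0.0917, so it was not called. The difference was called in 11 of 17 other settings, some of which were chosen after the data were seen. It was called with DESeq2 (7.86e-08), RLE factors (0.0194), the receptor share as a covariate (0.00587), block 143 alone (-2.37, 0.000732) and the fit without the dam block (0.0166). It was not called in block 140 alone (-1.40, 0.0681) or when any 1 dam was left out. Part of its signal cannot be told apart from AABR07035374.1, a gene model whose values are likewise not whole. That model (chr12:11663683-11677831) lies within the span of Cyp3a23/3a1 (chr12:11655402-11733137) on the same strand. Their sum had a difference of -1.83 ± 0.41 (adjusted p = 0.143).

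Ephx1, Cyp2b1, Dhrs7l1, Slco1a4 and Ugt1a6, further genes of drug metabolism, were called in the dam and not in the fetus, and for none of these 5 did the difference pass. Ephx1, microsomal epoxide hydrolase, stood at 75.9, 94.7 and 127 CPM in control dams and at 384, 393, 565 and 383 CPM in treated dams. In the fetus it stood at 23.2, 28.6 and 43.8 CPM and at 38.5, 42.2, 42.8 and 40.6 CPM, where the doses overlap. The difference was -1.46 ± 0.33 (adjusted p = 0.145; 0.0467 with RLE factors, 0.0197 without the dam block). Cyp2b1, the marker enzyme of CAR activation, went from 3.17, 31.7 and 63.0 CPM to 444, 1050, 1360 and 612 CPM in the dam, a fold change of 4.86 ± 0.54. In the fetus it stood at 3.02, 5.07 and 2.27 CPM in the controls of block 140 and at 7.61 and 6.26 CPM in its treated libraries, and at under 0.06 CPM in the controls of block 143 and at 3.65 and 0.371 CPM in its treated libraries. Each treated fetal library thus lay above the controls of its own block, with a fetal fold change of 2.50 ± 0.83 (adjusted p = 0.473). The difference of -3.13 ± 0.99 (adjusted p = 0.223) turned to 0.46 in block 143 alone. Its values are not whole in any library, nor are those of its close relative Cyp2b2, and the sum of both had a difference of -3.50 ± 0.98 (adjusted p = 0.204).

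Dhrs7l1, Slco1a4 and Ugt1a6, a dehydrogenase, a bile salt and drug transporter and a glucuronidating enzyme, also rose in the dam. Dhrs7l1 rose by 3.41 ± 0.47 in the dam and had a difference of -5.38 ± 0.97 (adjusted p = 0.0709; 0.0152 without the block). Slco1a4 rose by 1.46 ± 0.22 with a difference of -3.11 ± 0.88 (adjusted p = 0.208; 0.0311 without the block). For both, the fetal controls of block 140 held more than those of block 143, 1.73 to 6.35 against 0.215 to 0.573 CPM for Dhrs7l1 and 2.20 to 9.18 against 0.191 to 0.431 CPM for Slco1a4, in step with the receptor probe counts. The part of that background in the 2 values was not tested beyond the fit with the receptor share, which gave -6.23 (adjusted p = 0.0346) and -3.61 (adjusted p = 0.566). Ugt1a6, whose fetal level of 30.0 to 47.5 CPM is above such background, rose by 1.04 ± 0.18 in the dam and had a fetal value of 0.22 ± 0.18 and a difference of -0.68 (95% interval -1.29 to -0.07, adjusted p = 0.296).

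Of the mitochondrial beta-oxidation genes, Eci1, Hadha and Acadm rose in the dam, with no called difference between the livers. Eci1, an enoyl-CoA isomerase, went from 44.0, 74.1 and 107 CPM to 681, 163, 292 and 246 CPM in the dam and from 15.4, 20.7 and 34.4 CPM to 34.7, 21.7, 18.9 and 18.4 CPM in the fetus. Its difference was -1.74 ± 0.45 (adjusted p = 0.177; 0.0381 without the block). Hadha, the alpha subunit of the trifunctional protein, rose by 0.78 ± 0.14 in the dam with a difference of -0.28 (95% interval -0.87 to 0.32). Acadm, medium-chain acyl-CoA dehydrogenase, rose by 0.92 ± 0.21 in the dam, and its difference was -0.52 (95% interval -1.42 to 0.38). Control dams stood at 480, 571 and 797 CPM and treated dams at 2880, 837, 757 and 781 CPM. The doses thus overlapped, and dam 2082 stood far above the other treated dams.

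Rgn and Fmo1 fell in the dam and were not called in the fetus or in the difference. Rgn, regucalcin, a gluconolactonase of vitamin C synthesis, stood at 53.6, 74.4 and 116 CPM in control dams and at 32.4, 42.1, 29.2 and 54.1 CPM in treated dams, whereas the fetus stood at 16.4, 19.4 and 24.1 CPM and at 24.9, 25.8, 35.1 and 27.7 CPM. Its difference was 1.67 ± 0.34 (adjusted p = 0.0948; 0.0156 without the block). Gulo, which catalyses the last step of the same pathway and was named after its values were seen, had a difference of 2.13 ± 0.44 (adjusted p = 0.107; 0.0156 without the block), with a maternal value of -1.28 ± 0.32 and a fetal value of 0.63 ± 0.28, neither called. Fmo1, a flavin monooxygenase, fell by 1.89 on the log2 scale in the dam (SE 0.42), had a fetal value of 0.16 ± 0.16 at 253 to 573 CPM and a difference of 2.22 ± 0.48 (adjusted p = 0.121; 0.0241 without the block). Every treated dam lay below every control dam for 3 of the 48 named genes, Gulo, Prom1 and Hsd17b13, as did 0.559% of all genes tested in the dam. Gulo and Prom1 were named after their values were seen, so this count too is a description only.

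**Figure D3:**
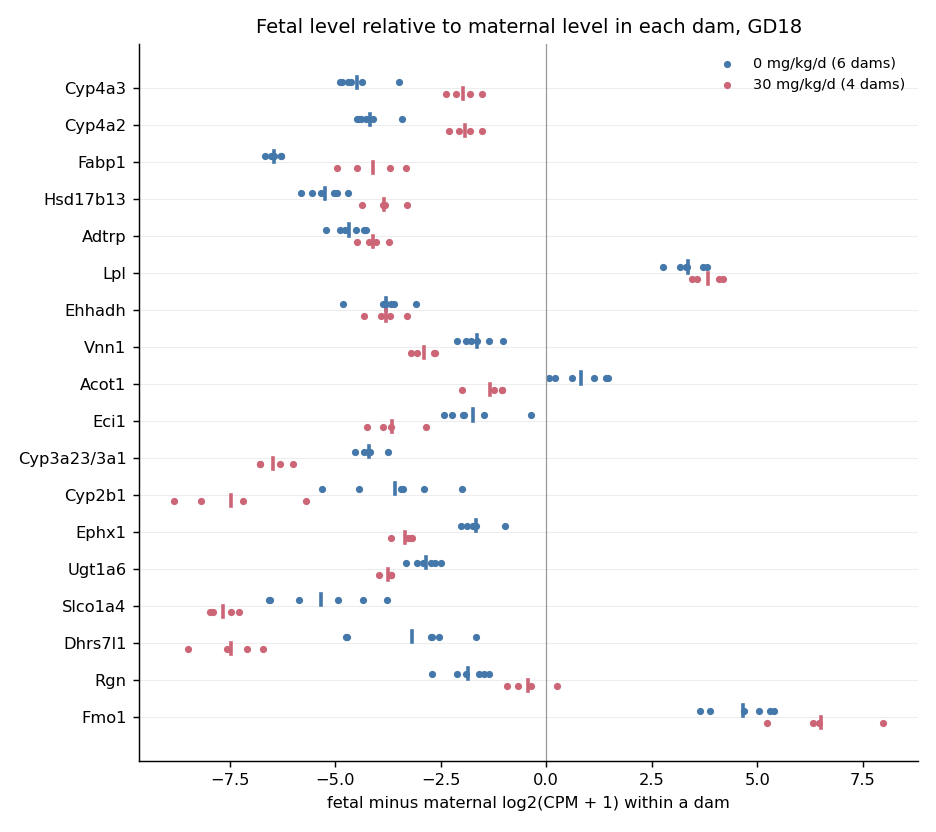
Fetal minus maternal log2(CPM + 1) within each dam for 18 genes, with points for dams and a bar at the mean of 0 mg/kg/d (blue, 6 dams) and 30 mg/kg/d (red, 4 dams). Red lies to the right of blue without overlap for Cyp4a3, Cyp4a2, Fabp1, Hsd17b13 and Rgn. It lies to the left without overlap for Vnn1, Acot1, Eci1, Cyp3a23/3a1, Cyp2b1, Ephx1, Ugt1a6, Slco1a4 and Dhrs7l1.

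Aldh1a1, Gdf15 and Zwint, named after their values were seen, rose in the dam and were not called in the fetus or in the difference. Aldh1a1, retinaldehyde dehydrogenase, rose by 1.87 ± 0.21 in the dam, from 307 to 529 CPM to 1090 to 2520 CPM, while the fetus held 1.53 to 6.14 CPM, and its difference was -1.50 ± 0.43 (adjusted p = 0.211). Gdf15, a stress hormone of the TGF-beta family, rose by 1.86 ± 0.31 in the dam and had a difference of -2.58 ± 0.58 (adjusted p = 0.151; 0.0211 without the block), although the fetal control range of 1.72 to 15 CPM held 1 library, that of dam 2114, far above the others. Zwint, a kinetochore protein, rose by 0.64 ± 0.09 in the dam and had a difference of -0.93 ± 0.33 (adjusted p = 0.255). Within dams, 116 of all genes tested (0.831%) had every treated value below every control value. Among the named genes, chosen with such values known, these were the 17 genes Cyp2b1, Cyp3a23/3a1, Ephx1, Por, Slco1a4, Ugt1a6, Dhrs7l1, Acot1, Acot2, Acot4, Vnn1, Eci1, Cyp2c11, Nr1i3, Gdf15, Aldh1a1 and Zwint.

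The receptors behind these targets were measured as well. Ppara stood at 9.39 to 20.9 CPM in control dams and at 4.99 to 13.9 CPM in fetal controls, and its difference was -0.01 (95% interval -0.97 to 0.95). Rxra had a difference of 0.46 (95% interval -0.25 to 1.16) and Nr1i2, which encodes PXR, of 0.15 (95% interval -0.46 to 0.76). Neither Ppara, Rxra nor Nr1i2 was called in either liver, and Rxra and Nr1i2 were lower in fetal than in maternal controls, at 19.6 to 43.3 against 124 to 194 CPM and at 34.1 to 62.1 against 161 to 204 CPM. Nr1i3, which encodes CAR, was low in all libraries, at 0 to 8.69 CPM. It stood at 0.549 to 2.78 CPM in control dams and at 2.93 to 8.69 CPM in treated dams. The maternal fold change was 1.78 ± 0.44 (adjusted p = 0.0612), not called, and Nr1i3 was too low for the fetal test. Its difference was -4.31 ± 1.13 (adjusted p = 0.177; 0.0291 without the block), with fetal controls at 1.01 to 1.59 CPM in block 140 and at 0 to 0.322 CPM in block 143. Cyp2c11, a P450 typical of adult male rats, stood at 1.64 to 6.70 CPM in control dams and at 9.76, 15.6, 11.7 and 17.8 CPM in treated dams, and its difference was -4.22 ± 1.06 (adjusted p = 0.177; 0.0249 without the block), with fetal controls at 1.89 to 3.00 CPM in block 140 and at 0 to 0.191 CPM in block 143. Both genes thus had the layout of the receptor probe counts in fetal controls, and with the receptor share as a covariate they stood at -4.24 (Nr1i3, adjusted p = 0.57) and -5.53 (Cyp2c11, adjusted p = 0.277).

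The 3 genes called lower have no known role in fatty acid or drug metabolism: Hrnr encodes hornerin, a protein of the skin barrier, and LOC499136 and AABR07053613.1 are unnamed gene models. LOC499136 stood at 23.4, 61.6 and 20.4 CPM in the control dams of block 140, at 35.4 and 29.7 CPM in its treated dams, at 11.3, 36.5 and 14.9 CPM in its fetal controls and at 0.688 and 0.607 CPM in its fetal treated libraries. In block 143 it stood at 0 to 0.414 CPM throughout. The difference of -4.12 ± 0.64 (adjusted p = 0.0384) therefore rests on block 140, and in block 143 alone the gene was too low to be tested. Hrnr had a difference of -3.43 ± 0.55 (adjusted p = 0.0384) and AABR07053613.1 of -3.67 ± 0.63 (adjusted p = 0.0485), with the same layout of libraries. In the same libraries the receptor probe sum was 1094 to 3614 CPM in fetal controls and 204 and 476 CPM in fetal treated libraries of block 140. With that sum as a covariate the values became -3.04 for LOC499136 (adjusted p = 0.918), -0.96 for Hrnr (0.929) and -3.04 for AABR07053613.1 (0.486). Among the 1533 genes with a negative difference at an unadjusted p under 0.05, 85.6% were at least 5 times higher in control dams of block 140 than of block 143, against 24.7% of all genes tested. Without such genes, a setting chosen after the data were seen and defined on these libraries, 4 genes were called, Cyp4a2, Cyp4a3 and Fabp1 higher and Cyp3a23/3a1 lower.

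**Figure D4:**
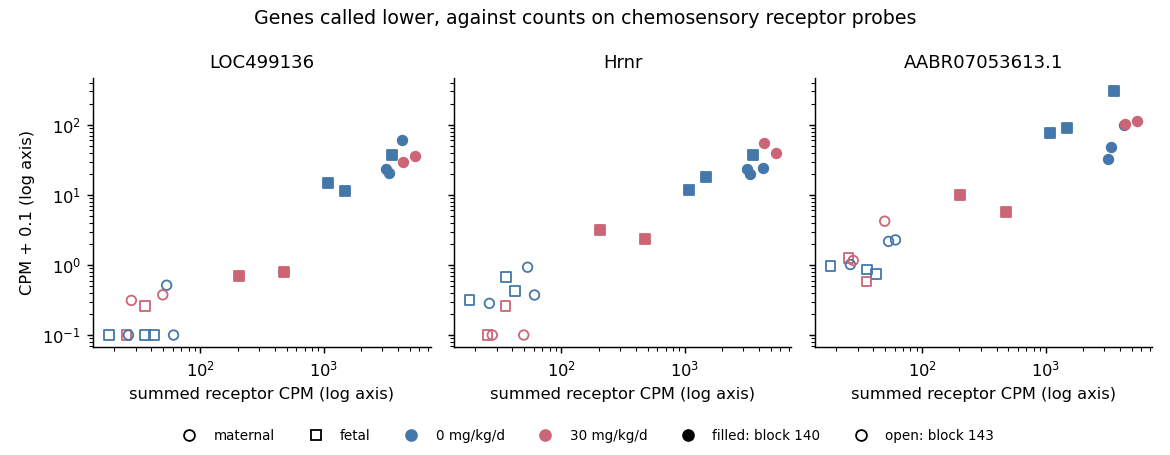
CPM plus 0.1 of LOC499136, Hrnr and AABR07053613.1 (vertical log axes) against the summed CPM of chemosensory receptor genes (horizontal log axes) in the 20 libraries, by liver (circle or square), dose (blue 0, red 30 mg/kg/d) and block (filled 140, open 143). The filled red squares, the fetal treated libraries of block 140, hold fewer counts of both kinds than the other filled points.

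Gene lists were described by counts and medians, without a test. Beside the counts below, 0.348% of all genes tested were called higher in the dam and 0.103% in the fetus. In the difference 0.0215% were called higher. Of the 32 PPAR-alpha lipid targets tested in the difference, 3 were called higher and none lower. In that list 3 of 31 members rose in the dam (Acot1, Pdk4 and Vnn1) and 9 of 27 in the fetus, among them Acot1, Adtrp, Cyp4a2, Cyp4a3, Fabp1, Hsd17b13, Lpl and Vnn1. The median of the list was 0.08 in the dam, 0.51 in the fetus and 0.21 in the difference, where all genes had 0.05, -0.05 and -0.09. Of the 26 CAR and PXR targets none was called in the difference. In the dam 10 of 26 rose (Aldh1a1, Cyp2b1, Cyp2b2, Cyp2c6v1, Cyp3a23/3a1, Dhrs7l1, Ephx1, Gsta2, Slco1a4 and Ugt1a6), and in the fetus 1 of 20, Cyp3a23/3a1. The medians were 1.06 in the dam and -0.27 in the fetus, and the difference had a median of -1.73. It was -1.60 over the 20 members with a mean of at least 1 CPM at some dose in each liver. All genes that met this rule had 0.05. The rule also keeps genes that reach 1 CPM in fetal controls alone. Mean fetal levels of control and treated libraries were 2.1 and 0.399 CPM for Dhrs7l1 and 2.73 and 0.571 CPM for Slco1a4. Fetal controls of both genes went in step with the receptor probe counts, as described above. The part of that background in the -1.60 was not tested.

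For peroxisomal beta-oxidation and biogenesis 4 of 30 members rose in the dam, among them Acot4, Acox2 and Ehhadh, and 2 of 25 in the fetus, among them Ehhadh, and the median difference was -0.06. Mitochondrial beta-oxidation had 4 of 23 maternal rises (Acadm, Acot2, Eci1 and Hadha) and no fetal call among 22. Its median difference was -0.31, and -0.05 over the 21 members that met the rule of at least 1 CPM at some dose in each liver. Glutathione and conjugation enzymes had 4 maternal rises among 25 (Gsta2, Gsta5, Ugt1a6 and Ugt2b10) and no fetal call among 25. Their median difference was -0.33, the same over the 23 members that met that rule.

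Lists of plasma proteins and lipid synthesis had small positive medians and no call in the difference: acute phase, complement and coagulation genes had 0.42 in the difference with 29 of 35 members positive, and fatty acid and triglyceride synthesis 0.39 with 14 of 18 positive. Of all genes tested in the difference, 6303 of 13953 were positive. Lipoproteins and lipid transport had 0.36 and cholesterol biosynthesis and LDL uptake 0.23. No member of the cell cycle list was called in either liver, and its medians were -0.01 in the dam and -0.02 in the fetus. Among markers of other cells, the erythroid list had 3 of 20 members called lower in the dam (Hba-a2, Hba-a3 and Hbb-bs) and none of 30 called in the fetus. Of all genes, 0.109% were called lower in the dam. Placenta and decidua markers, 10 of which are in the table, summed to 0 to 37.9 CPM in maternal libraries, to 0.191 to 25.8 CPM in fetal controls and to 0.162 to 4.13 CPM in fetal treated libraries. Their median difference was -2.61 with none of 6 positive, a larger shift than that of the CAR and PXR targets, and 9 of the 10 had a mean under 1 CPM in fetal controls.

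**Figure D5:**
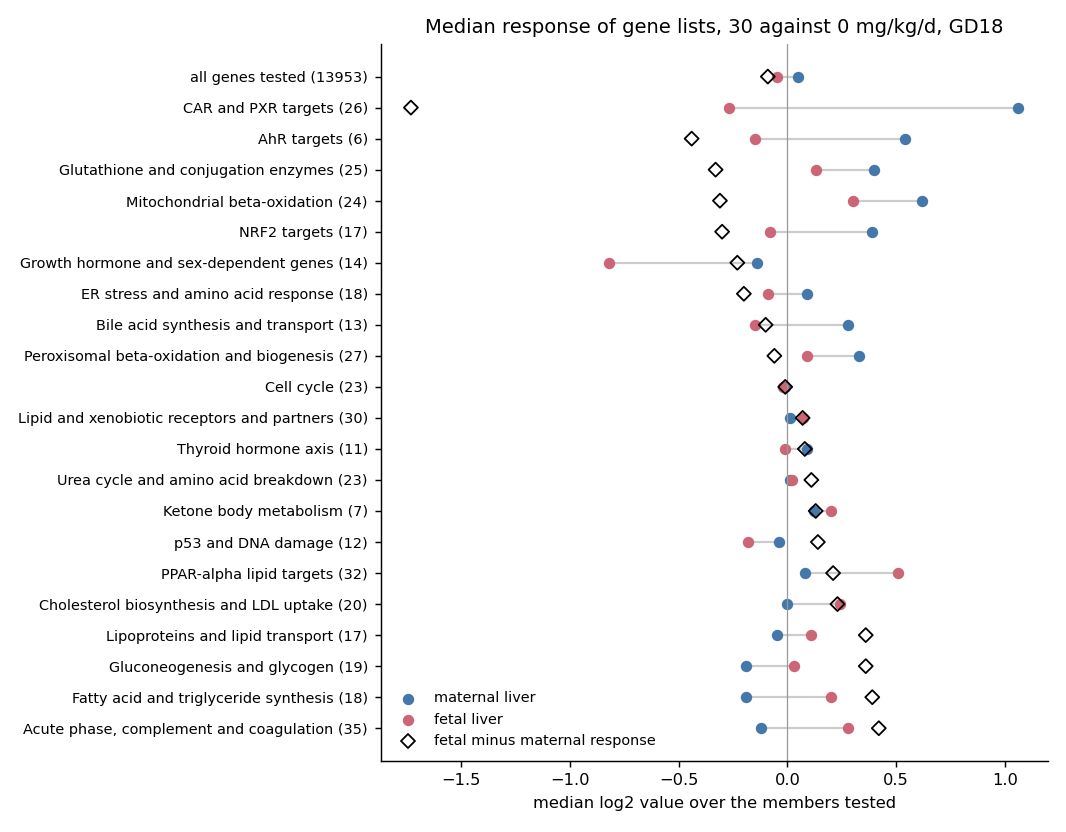
Median log2 fold change of each gene list in maternal (blue) and fetal liver (red) and median of the fetal minus maternal response (open diamonds), with the number of members tested in the difference in brackets. CAR and PXR targets lie at 1.06 and -0.27 and PPAR-alpha lipid targets at 0.08 and 0.51.

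In 6 other dams of study block 144, dosed from GD17 to GD21 at 0 or 30 mg/kg/d (3 each; their age label reads GD20), none of 10167 genes was called in the same difference (0%) by edgeR's quasi-likelihood test, 242 had an unadjusted p under 0.05 and DESeq2 called 12. Fabp1 had 2.75 ± 0.51 there (adjusted p = 0.582), close in size to its value at GD18. For Cyp4a3 the GD21 value was 1.04 ± 0.59 and for Cyp4a2 0.96 ± 0.55. Ephx1 had -1.75 ± 0.36 and Dhrs7l1 -5.08 ± 1.11, and Cyp3a23/3a1 -2.50 ± 1.15. Of the 45 named genes tested at both ages, 36 had the same sign and 9 the opposite one, among them Cyp4a1 (1.02 at GD21), Pck1 (2.86), Igfbp1 (0.63) and RGD1564614 (-1.66), and Acot1 stood at -0.09 there. The named genes were chosen with earlier results of these data known, and the share over all genes was not computed. The count of signs is therefore a description only. Whether the ages differ was not tested.

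At 10 mg/kg/d on GD18, a comparison that shares the control libraries with that at 30 mg/kg/d, none of 12651 genes was called (0%), 474 had an unadjusted p under 0.05 and DESeq2 called 1. Side by side with 30 mg/kg/d, the difference was 0.74 ± 0.36 for Cyp4a3, 0.50 ± 0.35 for Cyp4a2, 0.69 ± 0.21 for Fabp1 and -1.10 ± 0.40 for Cyp3a23/3a1.

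An exact permutation test of the within-dam differences, which exchanges the dose between the 10 dams in all 210 ways, had too few arrangements to call any gene across the table. Its smallest two-sided p was 0.00476, reached by 105 of 13953 genes, and its smallest adjusted p was 0.633. Cyp4a3, Cyp4a2, Fabp1, Cyp3a23/3a1, Ephx1 and Acot1 were among the genes at 0.00476. In the models with a dam term, differences in level between dams drop out. Their p-values measure how the fetal minus maternal difference varies among dams of a dose, each of which gave 1 pair of libraries. The fit without that term treats the libraries of a dam as independent.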

How the data were processed

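Liver RNA of 20 libraries was read from the table of counts deposited for the series. Per the labels' protocols, TempO-Seq libraries were sequenced with single reads of 50 bases. STAR 2.7.3a, Partek and the build rn6 are named in the submitters' processing notes, without roles. The deposited values are estimated counts: 7.61% are not whole, so the counts were rounded before tests. A second deposited table, log2 of CPM with an offset by the authors, was not used for tests.

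Differences were fitted with edgeR 4.0.16 in R 4.3.3 (TMM factors, filterByExpr by liver and dose, terms for dam, liver and liver by dose, Benjamini-Hochberg adjustment over all genes tested, threshold 0.05, two-sided). The SE is the log2 value divided by the square root of F. Each liver was fitted with its 30 GD18 libraries, dose as a factor and a study block term. CPM are shares of library totals, and the within-dam values use a pseudocount of 1 CPM. DESeq2 1.42.0 and limma 3.58.1 were alternatives. The difference fit was tested on simulated data.

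Dams pair the libraries by the dam number in the labels. After removal of group means, libraries of the same dam correlated at a median of 0.0891 (0.0565 to 0.13, 10 pairs) and libraries of other dams at -0.00941. No 2 libraries of a group agreed within sampling noise (chi-square per degree of freedom 7.27 to 114).

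Named genes were those called in the difference and a list of 43 (40 in the table, 38 tested), plus 7 chosen after their values were seen: Gulo, Gdf15, RGD1564614, AABR07035374.1, Prom1, Aldh1a1 and Zwint. The members and the 33 lists were chosen with earlier results of these data known. Some genes of the lists are counted but not reported here by name.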

Additional observations from a re-analysis of the deposited data

Results flagged for a closer look

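Of the results above, 6 were marked because the response differed between the livers by the test of the difference itself: Cyp4a3 (2.90), Cyp4a2 (2.67) and Fabp1 (2.56), with a larger rise in fetal liver, and LOC499136 (-4.12), AABR07053613.1 (-3.67) and Hrnr (-3.43), lower in the fetus. The last 3 move with the receptor probe counts of block 140, and how much of their difference belongs to those counts was not tested beyond the covariate fit.

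Single dams stood far from the rest of their group in 9 of 96 groups of within-dam values, where chance gives about 1 in 20. Control dam 2116 had the highest value of its group for Cyp4a3 (-3.49) and Cyp4a2 (-3.41), still below every treated dam. Control dam 2069 was high for Ephx1 (-0.98), and control dam 2070 was high for Fgf21 (-0.40) and low for Gulo (-3.71). Among treated dams, 2082 was low for Acot2 (-2.70) and Acadm (-4.42), 2127 low for Ugt1a6 (-3.96) and 2083 high for Zwint (1.2).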

How the results depend on the processing

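The difference at GD18 gave 6 calls, and the number moved with most choices: 133 with no filter on low counts, 34 with DESeq2, 443 without the replicate block for dam, 40 with the block and a liver by study block term, 246 in block 140 alone, 21 in block 143 alone, and 2 to 17 with 1 dam left out (2 without each of 2069, 2070, 2071, 2082 and 2083, 17 without 2127). Chosen after the data were seen, fetal sex as a covariate gave 2, fetal sex with the receptor share 8 and leaving out dams 2082 and 2114 gave 3. Also chosen then, leaving out genes high in block 140 gave 4 and summing near-identical copies 4. The maternal response gave 18 calls with control and 30 mg/kg/d libraries alone, 200 with DESeq2 and 23 to 124 with 1 dam left out. The GD21 difference gave 12 with DESeq2 and 0 to 3 with 1 dam left out, and that at 10 mg/kg/d gave 1 with DESeq2. Cyp4a3 and Cyp4a2 were called under every alternative run in which they were fitted singly, at log2 values of 2.08 to 3.74 and 2.07 to 3.29. Signs turned only for values that were not called: Cyp2b1 (0.46 in block 143 alone), Acadm (0.25 there), Rxra (-0.32 there), Nr1i2 (-0.32 there, 0 with the filter in both livers, -0.04 with the receptor share, -0.09 with it and sex, -0.10 to 0.33 with 1 dam left out), Ppara (0.45 there, 0.05 with no filter, 0 with the liver by block term, 0.02 with all 60 libraries, 0.08 with sex, -0.30 to 0.19 with 1 dam left out), Acaa1a (0.31 in block 140 alone, -0.32 to 0.08 with 1 dam left out) and Fabp3 (-0.03 with sex and receptor share, -0.06 without dams 2082 and 2114, -0.10 to 0.48 with 1 dam left out). The cause of these moves was not tested. Of the single-gene values, 83 became called and 26 lost the call under settings other than leaving out a dam, and 3 and 27 when 1 dam was left out. With 4 treated dams the SE of the named differences was 0.28 (Hadha) to 2.13 (Cyp2b2), and differences of over 5 times their SE went uncalled (Dhrs7l1, Cyp3a23/3a1).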

Other observations

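Other metabolic genes of the list had differences that did not pass. Pdk4, which shuts carbohydrate carbon out of the citric acid cycle in fasting, rose by 1.35 ± 0.30 in the dam. In the fetus the control library of dam 2070 stood at 4.06 CPM and all others at 0 to 0.516 CPM. The difference was -3.19 ± 1.33 (adjusted p = 0.29), and -4.73 to -1.59 with 1 dam left out. Pck1, the key enzyme of gluconeogenesis, had a difference of -1.97 ± 0.81 (adjusted p = 0.283) on fetal levels of 0.191 to 3.06 CPM. Igfbp1, a binding protein of insulin-like growth factors, was well measured in both livers, at 4.35 to 211 CPM in dams and 56.4 to 229 CPM in fetuses, and had -1.10 ± 0.48 (adjusted p = 0.313). Cpt1a, the gate of mitochondrial fatty acid import, had 0.37 (95% interval -0.71 to 1.46), Acaa1a, the peroxisomal thiolase, -0.15 (95% interval -0.79 to 0.48) and Fabp3, the heart fatty acid binding protein, 0.20 ± 0.44.

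Cyp3a9 and Por, a second Cyp3a enzyme and the electron donor of the P450 enzymes, had maternal values of 1.08 ± 0.27 (adjusted p = 0.0707) and 1.33 ± 0.35 (adjusted p = 0.0877) and differences of -2.18 ± 0.81 and -1.95 ± 0.71. Fetal controls held 1.41 to 8.29 CPM of Cyp3a9 in block 140 and 0.322 to 0.862 CPM in block 143, the layout of the receptor probe counts. The part of that background in its difference was not tested beyond the fit with the receptor share. Por was low in both livers, at 0.621 to 4.07 CPM in dams and 0.328 to 1.72 CPM in fetuses, too low for the fetal test. RGD1564614, named after its values were seen, had the largest positive difference among the named genes, 5.29 ± 1.17 (adjusted p = 0.134). Its maternal level spanned 2.94 to 1450 CPM in controls and 2.12 to 791 CPM in treated dams. Control dam 2071 of block 140 had nearly none of it. So had treated dams 2127 and 2128, at 2.12 and 6.04 CPM, which are all the treated dams of block 143. Treated dams 2082 and 2083 of block 140 stood at 791 and 632 CPM. In block 143 alone the difference was 7.79 (adjusted p = 3.35e-09). It was 4.24 without dam 2127 and 4.22 without dam 2128. All adjusted p-values are from edgeR's quasi-likelihood test.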
